A study of Homo sapiens with 6 samples.

Results

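This account covers 10 nuclear genes that encode the chaperones and quality-control proteases of the mitochondrion, in SW480 cells exposed to the mitochondrial probe MPM-1. SW480 is an established human colorectal adenocarcinoma line. MPM-1, which the sample labels call WT4, is a small fluorescent molecule that accumulates in mitochondria, and its dose in the sequencing experiment was not given in the sources used here. Wild-type SW480 cells received MPM-1 or, as the control, DMSO for 24 h, and 3 mRNA sequencing libraries stand for each treatment. The 10 genes were picked by symbol and function, by a rule that uses no measured value but was written with earlier results of these data known, and all 10 were among the 12982 genes of the deposited table. They are the chaperones HSPD1, HSPE1 and HSPA9, the matrix proteases LONP1, CLPP and CLPX, and the inner membrane proteases YME1L1, AFG3L2, SPG7 and OMA1.

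Proteins enter mitochondria unfolded and have to fold again inside. HSPA9 (mitochondrial HSP70, also called mortalin) pulls incoming chains into the matrix and helps them fold, while HSPD1 (HSP60) and HSPE1 (HSP10) form a folding barrel and its lid. Proteins that stay misfolded are degraded by ATP-driven proteases: LONP1 and the CLPX-CLPP complex in the matrix, the AFG3L2 and AFG3L2-SPG7 complexes facing the matrix, and YME1L1 facing the intermembrane space. OMA1 needs no ATP and is known as a stress-activated protease that cuts the fusion protein OPA1. Many of these genes are classed as targets of the mitochondrial unfolded protein response, a program of transcription that follows folding stress in the organelle.

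HSPD1 and HSPE1 lie head to head on chromosome 2 and are transcribed away from each other, so the DNA between their start sites is shown first. In RefSeq (GRCh38.p14) 104 bases separate the outer HSPD1 start site from that of HSPE1. In GENCODE some transcripts of either gene start further upstream and cross this stretch, and the longest HSPD1 annotation spans the whole of HSPE1. It holds none of the motifs searched, so no letters are in capitals:

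HSPD1-HSPE1 gap, chr2:197500275-197500378, plus strand: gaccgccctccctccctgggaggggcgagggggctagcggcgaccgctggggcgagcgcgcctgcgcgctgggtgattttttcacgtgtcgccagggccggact

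The next sequences carry motif matches. Motifs of 3 kinds were searched on both strands in RefSeq promoter windows, which reach from 250 bases before a start site to 50 after it. These were the heat shock element (GAANNTTC or TTCNNGAA), the composite element of the stress factors CHOP and ATF4 (TGATGNAA) and the core of the nuclear respiratory factor 1 element (GCGCATGC). Windows were found for 8 of the 10 genes, 11 windows in all, and none for CLPP and YME1L1. Heat shock element letters occurred before the inner HSPD1 start site as 3 overlapping matches, and once at the start site of HSPA9. The HSPD1 matches lie just outside the window of HSPE1, which starts at position 197500129, so they were not counted for HSPE1. LONP1 was the only gene of the 8 with the nuclear respiratory factor 1 core, as 4 matches before its outer start site of which 3 lie in the stretch printed, and the CHOP and ATF4 letters were in none of the 11 windows. The matching stretches are given below with the motif letters in capitals:

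HSPD1, chr2:197500061-197500090, minus strand: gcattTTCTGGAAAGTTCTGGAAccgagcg

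HSPA9, chr5:138575387-138575416, minus strand: tggttggaggtTTCCAGAAgcgctgccgcc

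LONP1, chr19:5720573-5720676, minus strand: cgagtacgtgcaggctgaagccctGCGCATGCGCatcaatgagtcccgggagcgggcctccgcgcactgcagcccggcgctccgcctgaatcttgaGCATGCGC

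Of all 35116 promoter windows of the same length, 13.5% held the heat shock letters, 3.62% the CHOP and ATF4 letters and 3.05% the nuclear respiratory factor 1 core. These shares are per window, whereas the matches above are told by gene, and HSPD1, SPG7 and LONP1 have windows at different start sites. Overlapping letters on both strands were counted as separate matches, and a match is a description of the sequence, not of binding.

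The counts of the libraries summed to between 31733667 and 40269820. The TMM factors, which correct library size for composition, lay between 1.03 and 1.07 in the DMSO libraries and between 0.93 and 0.97 in the MPM-1 libraries, and some small changes below depended on the scaling. Of 7 epithelial markers fixed for this check, all 7 were in the table, with a summed level of 4760 to 5487 FPKM in DMSO and 6709 to 7173 FPKM after MPM-1. Most of this sum came from the keratins KRT8, KRT18 and KRT19, which rose, as did CDH1. CDX2 (log2 fold change -2.20) and VIL1 (-0.88), both intestinal markers, fell, and EPCAM was not called (-0.00084). Of 6 markers of other cell types, PTPRC, CD3E, PECAM1 and ALB were not among the genes in the table. CD68 was higher (68.3 to 145 CPM) and COL1A1 lower (2.97 to 0.705 CPM) after MPM-1, and their part in the results was not tested. Because RNA came from whole cultures, fewer cells with a transcript and less transcript per cell cannot be told apart.

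Levels between genes were compared as FPKM, a value corrected for transcript length and sequencing depth, as deposited by the authors. The TMM factors were not applied to FPKM, so its changes between treatments can differ from those tested on the counts below. FPKM and CPM also differed by gene within a treatment. In DMSO replicates 1, 2 and 3, CLPB, a gene of a further list below, had 12.9, 6.30 and 9.34 FPKM but 34.7, 29.6 and 28.5 CPM. How FPKM was computed is not given in the sources used here, which limits the levels, orders and ratios in FPKM. In DMSO, HSPD1 had the highest level at 414 ± 23.1 FPKM (SD, n = 3 libraries). HSPE1 at 168 ± 5.08 FPKM and HSPA9 at 167 ± 5.78 FPKM followed with overlapping libraries. Next came CLPP at 141 ± 8.02 FPKM, YME1L1 at 57 ± 2.22 FPKM and LONP1 at 52.2 ± 2.23 FPKM. SPG7 at 26.4 ± 0.50 FPKM and AFG3L2 at 25.8 ± 0.818 FPKM could not be ordered, since their libraries overlapped. CLPX stood at 19.1 ± 0.819 FPKM and OMA1 last at 4.65 ± 1.04 FPKM, the only gene of the 10 below the median of all genes in DMSO (7.60 FPKM).

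After MPM-1 the order changed among the chaperones. HSPD1 remained first at 327 ± 13.4 FPKM (SD, n = 3), and HSPA9 came close behind at 303 ± 3.83 FPKM, without overlap. HSPE1, level with HSPA9 in DMSO, was now at 79.6 ± 6.83 FPKM, below CLPP at 99.5 ± 6.50 FPKM and overlapping YME1L1 at 73.7 ± 2.56 FPKM. LONP1 (61.6 ± 4.72 FPKM), SPG7 (23.7 ± 1.37 FPKM), AFG3L2 (19.9 ± 0.424 FPKM), CLPX (10.5 ± 1.69 FPKM) and OMA1 (1.82 ± 0.343 FPKM) followed with no overlap between neighbours, SPG7 and AFG3L2 included. The highest mean level was 89 times the lowest in DMSO and 180 times after MPM-1.

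**Figure D1:**
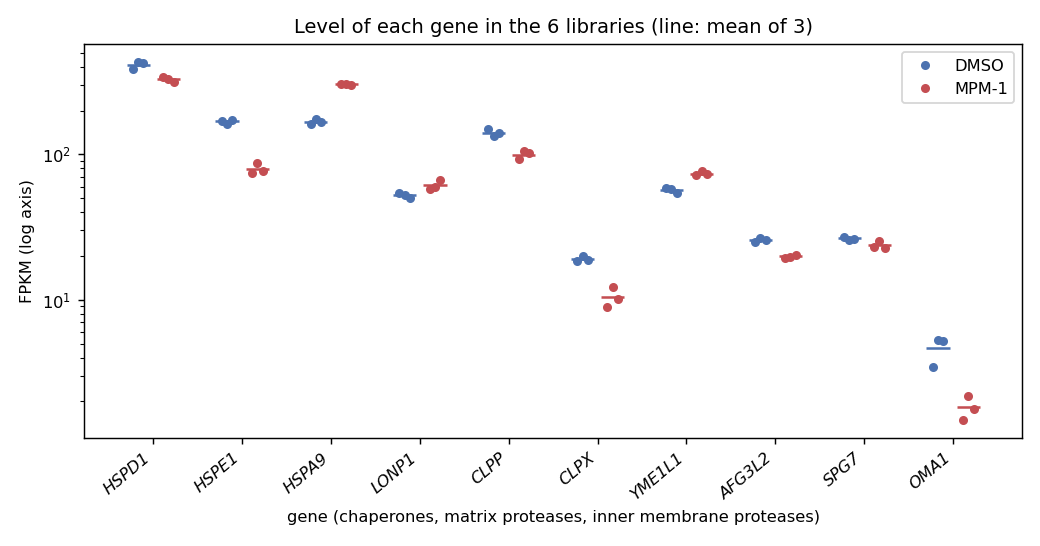
FPKM of the 10 genes on a log axis in the 3 DMSO libraries (blue) and the 3 MPM-1 libraries (red), 1 point a library, with a line at each mean. HSPA9 rose from a mean of 167 to 303 FPKM, and HSPE1 fell from 168 to 79.6 FPKM.

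The comparison of MPM-1 with DMSO asks what the probe did to these transcripts. It was tested on the counts with edgeR's quasi-likelihood test, adjusted by Benjamini-Hochberg over all 12982 genes, and an adjusted p under 0.05 was taken as a call. Of the 10 genes, 3 were higher (HSPA9, YME1L1 and LONP1) and 5 were lower (OMA1, HSPE1, CLPX, CLPP and AFG3L2) after MPM-1. The remaining pair, HSPD1 and SPG7, was not called. Over all genes 27.7% were called higher and 28.8% lower, so calls were common in this experiment, and the median log2 fold change was -0.20 for the 10 genes and -0.026 for all genes. The split of all calls depended on the scaling, since 49.0% of the called genes were higher with TMM and 34.7% with library size alone. It was 36.7% with limma on log2(FPKM + 0.1), which also differed in test, unit and genes tested. A stricter rule asked for an adjusted p under 0.01 together with a log2 change of 1 or more in either direction. By it, 5.58% of all genes were higher and 8.75% lower. OMA1 was the only gene of the 10 to pass it, as lower, but HSPE1 and HSPA9 lay close to the fold limit. HSPE1 passed with library size alone (-1.10) and with limma on log2(FPKM + 1) (-1.07) and log2(FPKM + 0.1) (-1.08), HSPA9 passed without MPM-1 replicate 3 (1.0006), and OMA1 did not with limma on log2(FPKM + 1) (-0.99). In CPM (counts scaled to library size with the TMM factors) the MPM-1 libraries lay wholly above or wholly below the DMSO libraries in 9 of the 10 genes, against 64.3% of all genes.

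Among the chaperones, HSPA9 (ENSG00000113013, chromosome 5, 138553756 to 138575724 on GRCh38) rose. It had 487, 509 and 490 CPM in DMSO replicates 1, 2 and 3, and 987, 973 and 938 CPM in the MPM-1 replicates. Every MPM-1 library was far above every DMSO library, and the replicates of each treatment lay close together. The log2 fold change was 0.96 (standard error 0.063, 95% interval 0.82 to 1.11, adjusted p = 3.25e-06 from edgeR), a level 1.95 times that in DMSO. Of all genes, 17.4% changed by more on the log2 scale. Among the other called genes of the 10, this share was 11.6% for OMA1, 17.9% for HSPE1 and 28.1% for CLPX. It was 45.1% for YME1L1, 56.9% for CLPP, 62.0% for LONP1 and 71.7% for AFG3L2.

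HSPE1 (ENSG00000115541, chromosome 2, 197499994 to 197503457), the lid of the chaperonin, fell. The DMSO libraries had 157, 147 and 154 CPM and the MPM-1 libraries 73.2, 86.9 and 77.6 CPM, again without overlap. The log2 fold change was -0.95 (standard error 0.084, 95% interval -1.13 to -0.76, adjusted p = 1.72e-05 from edgeR), about as large in size as the rise of HSPA9.

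HSPD1 (ENSG00000144381, chromosome 2, 197486581 to 197516737), the barrel itself, had 941, 1021 and 995 CPM in DMSO and 919, 867 and 836 CPM after MPM-1. All MPM-1 libraries were lower, but by little: the lowest DMSO library exceeded the highest MPM-1 library by less than the spread within either treatment. The log2 fold change was -0.17 (standard error 0.068, 95% interval -0.33 to -0.021), with an adjusted p of 0.0522 from edgeR, just outside the threshold. It was inside the threshold with scaling by library size alone (-0.33, adjusted p = 0.00245) and with limma on log2(FPKM + 0.1) (-0.34, adjusted p = 0.00329). Thus the members of the head-to-head pair printed above both had lower means after MPM-1, and differed in how far they moved.

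**Figure D2:**
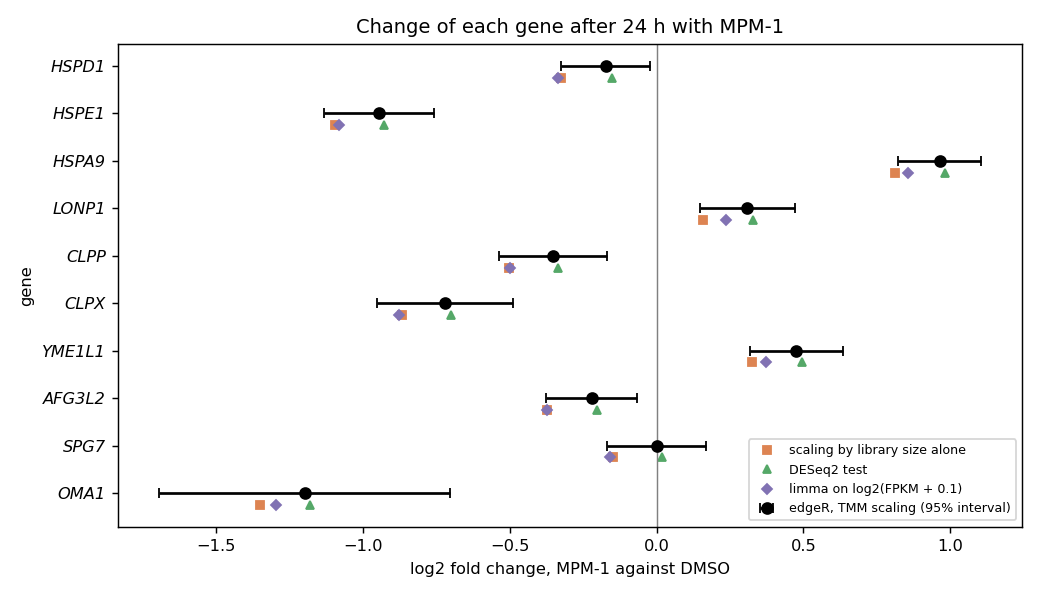
Log2 fold change of each gene, MPM-1 against DMSO, from edgeR with TMM scaling (black, bar: 95% interval) and below it the values with scaling by library size alone, from DESeq2 and from limma on FPKM. HSPA9 at 0.96 and OMA1 at -1.20 mark the ends of the range, and only the values of SPG7 fall on both sides of 0.

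In the matrix, LONP1 (ENSG00000196365, chromosome 19, 5691834 to 5720572), a protease that also clears oxidized proteins, had 172, 164 and 155 CPM in DMSO and 198, 207 and 203 CPM after MPM-1. The libraries did not overlap and the rise was small, with a log2 fold change of 0.31 (standard error 0.072, 95% interval 0.15 to 0.47, adjusted p = 0.00497 from edgeR). With scaling by library size alone it was 0.16 and no longer passed (adjusted p = 0.0744).

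CLPX (ENSG00000166855, chromosome 15, 65148219 to 65185342), the ring that unfolds substrates and feeds them to CLPP, fell most among the matrix proteases. Its levels were 87.1, 91.1 and 85.5 CPM in DMSO and 46.6, 61.7 and 51.8 CPM after MPM-1, the highest MPM-1 value being that of replicate 2. All were below DMSO, and the log2 fold change was -0.72 (standard error 0.10, 95% interval -0.95 to -0.49, adjusted p = 0.000313 from edgeR). CLPP (ENSG00000125656, chromosome 19, 6361452 to 6368910), the chamber that cuts the chain, went from 172, 148 and 156 CPM to 117, 129 and 126 CPM. It also fell without overlap, by a log2 fold change of -0.35 (standard error 0.082, 95% interval -0.54 to -0.17, adjusted p = 0.00482 from edgeR). The matrix proteases therefore moved in both directions, with LONP1 higher and both parts of the CLPX-CLPP complex lower.

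At the inner membrane, YME1L1 (ENSG00000136758, chromosome 10, 27110112 to 27155266) rose. It had 236, 226 and 213 CPM in DMSO and 309, 320 and 311 CPM after MPM-1, with a clear gap between the treatments. The log2 fold change was 0.48 (standard error 0.071, 95% interval 0.32 to 0.63, adjusted p = 0.000388 from edgeR).

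OMA1 (ENSG00000162600, chromosome 1, 58415384 to 58546802), which acts on the same OPA1 protein as YME1L1, fell by more than any other gene of the 10. It was also the least abundant, with 222, 424 and 394 reads in the DMSO libraries and 98, 139 and 127 in the MPM-1 libraries. This corresponds to 6.73, 9.82 and 9.89 CPM against 3.22, 4.52 and 3.78 CPM, DMSO replicate 1 being lower than its fellows but above all MPM-1 libraries. The log2 fold change was -1.20 (standard error 0.22, 95% interval -1.69 to -0.71, adjusted p = 0.00132 from edgeR), and its interval was the widest of the 10. When each library was left out in turn it stayed between -1.36 and -1.07.

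AFG3L2 (ENSG00000141385, chromosome 18, 12328944 to 12377314) and SPG7 (ENSG00000197912, chromosome 16, 89490719 to 89557768) encode the subunits of the protease facing the matrix. AFG3L2 had 81.2, 83.5 and 81.0 CPM in DMSO and 70.3, 68.5 and 71.98 CPM after MPM-1. This fall was small and even across libraries, with a log2 fold change of -0.22 (standard error 0.069, 95% interval -0.38 to -0.067, adjusted p = 0.0206 from edgeR). The call was lost in 5 of the 6 fits with a library left out, all but that without DMSO replicate 1, with adjusted p from 0.0531 to 0.0760 from edgeR. The log2 fold change in those 5 fits, -0.23 to -0.18, was about as large.

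SPG7 had 80.3, 76.2 and 78.0 CPM in DMSO and 75.5, 83.4 and 75.7 CPM after MPM-1, the only gene of the 10 whose libraries overlapped in CPM. Its log2 fold change was 0.00054 (standard error 0.075, 95% interval -0.17 to 0.17, adjusted p = 0.997 from edgeR). In FPKM, the MPM-1 libraries (22.6 to 25.2) lay below those of DMSO (25.9 to 26.9), and limma on log2(FPKM + 0.1) gave -0.16 (adjusted p = 0.117).

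Since partners act in complexes or on shared substrates, the ratio of their FPKM within each library was compared, which does not depend on the scaling between libraries. There were 4 such pairs, tested by a two-sided exact permutation test over the libraries. With 3 libraries against 3 this exact test cannot give less than p = 0.1, and all 4 pairs gave an exact p = 0.1, also 0.1 after Benjamini-Hochberg adjustment over the 4. In each pair the libraries of the treatments did not overlap, which could not reach significance by this test. Of single genes 64.3% did not overlap in CPM, and the share among other gene pairs was not computed.

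The HSPD1 to HSPE1 ratio was 2.29, 2.66 and 2.44 in DMSO and 4.53, 3.80 and 4.08 after MPM-1, a mean of 2.46 ± 0.182 against 4.14 ± 0.372 (SD, n = 3). Transcripts of the barrel were thus further in excess of those of the lid. For YME1L1 to OMA1 the ratio went from 16.9, 11 and 10.4 to 47.7, 35.1 and 41, a 3.29-fold increase in the geometric mean and the largest shift of the 4. CLPX to CLPP moved the other way, from 0.137 ± 0.0135 to 0.105 ± 0.0111, and AFG3L2 to SPG7 went from 0.977 ± 0.0495 to 0.842 ± 0.0585. A further ratio, HSPA9 to HSPD1, was added after its values had been seen and was not tested. It was 0.418, 0.402 and 0.394 in DMSO and 0.905, 0.915 and 0.956 after MPM-1, so that transcripts of HSPA9 came close to the level of HSPD1.

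**Figure D3:**
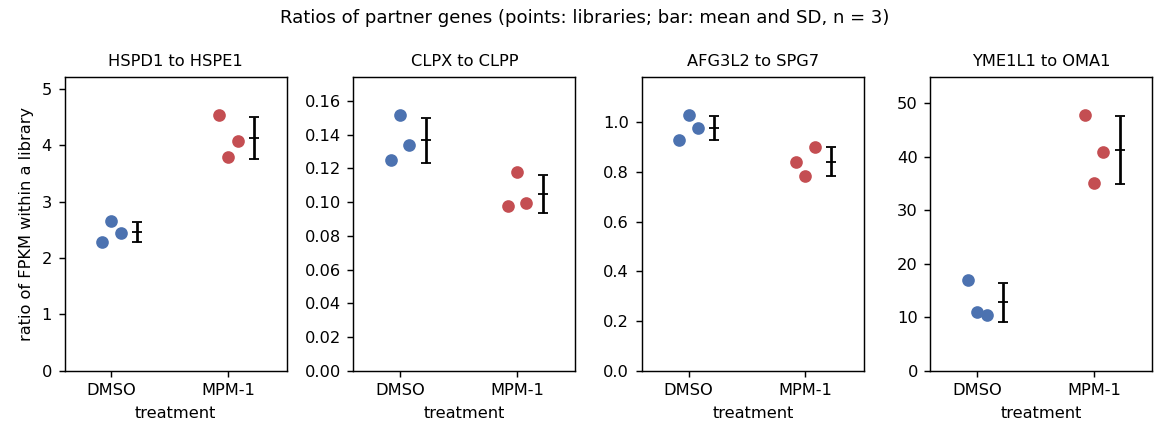
Ratio of FPKM of partner genes within each library, for 4 pairs, with points for the 3 libraries of each treatment and a bar for their mean and SD. HSPD1 to HSPE1 moved from 2.46 to 4.14 and YME1L1 to OMA1 from 12.8 to 41.3, without overlap between the treatments. How often other gene pairs lack overlap was not computed.

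Other genes of mitochondrial quality control were taken from 5 lists of 49 genes in all, of which 14 rose, 15 fell and 20 were not called. These shares were near those over all genes (27.7% higher and 28.8% lower), against which the counts of the single lists below should also be read. Among 8 co-chaperones and folding factors, 3 rose and 3 fell, with a median log2 fold change of 0.16. DNLZ, which keeps HSPA9 soluble, rose from 9.95 ± 1.19 to 15.9 ± 0.766 CPM (log2 fold change 0.68). TRAP1, the mitochondrial HSP90, fell from 337 ± 12.7 to 185 ± 5.15 CPM (-0.87). DNAJA3 and GRPEL2, partner proteins of HSPA9, were the other risers, and CLPB and PPIF the others that fell.

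Of 12 other mitochondrial proteases and peptidases, 1 rose and 3 fell (median -0.11). The riser was PARL, a rhomboid protease of the inner membrane, at 49.1 ± 0.50 CPM in DMSO and 71.7 ± 3.46 CPM after MPM-1 (0.55). XPNPEP3, an aminopeptidase that trims imported proteins, had the largest fall, from 37.0 ± 5.14 to 23.3 ± 0.804 CPM (-0.67).

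Among 10 scaffolds and further AAA proteins, 1 rose and 3 fell (median -0.082). GHITM, an inner membrane protein, rose from 367 ± 17.3 to 844 ± 39.6 CPM (1.20), and BCS1L, an assembly factor of respiratory complex III, fell from 27.1 ± 1.63 to 13.8 ± 1.89 CPM (-0.97). Of the prohibitins, which form a ring around the AFG3L2 protease, PHB fell (-0.58) and PHB2 was not called (-0.16, adjusted p = 0.0664 from edgeR).

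Among 11 genes whose proteins are cut or degraded by the proteases above, 4 rose and 5 fell (median 0.16). ALAS1, the first enzyme of heme synthesis and a substrate of LONP1 and CLPX-CLPP, rose from 90.8 ± 9.40 to 217 ± 3.22 CPM (1.26). TFAM, the packaging factor of mitochondrial DNA and a LONP1 substrate, fell from 39.7 ± 4.57 to 21.6 ± 0.517 CPM (-0.88). OPA1 was at 87.7 ± 4.34 and 97.8 ± 4.49 CPM and was not called (0.16, adjusted p = 0.102 from edgeR). DELE1, another protein cut by OMA1, was likewise not called (0.20, adjusted p = 0.0714).

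In the list of 8 regulators of the mitochondrial stress response, 5 rose and 1 fell, beside 27.7% higher and 28.8% lower over all genes, with the highest median of the 5 lists at 0.68. DDIT3, which encodes CHOP, rose from 40.4 ± 4.85 to 319 ± 87.2 CPM (2.98). ATF4 (1.04), ATF5 (0.97), CEBPB (0.78) and HSF1 (0.57) rose as well, whereas EIF2AK1, the kinase that senses DELE1, was not called (0.16, adjusted p = 0.0653 from edgeR). NRF1 was not called either (0.17, adjusted p = 0.324 from edgeR). SIRT3, the mitochondrial deacetylase, fell from 12.9 ± 2.89 to 7.95 ± 0.837 CPM (-0.69). Because the lists were chosen with earlier results of these data known, the high median of this list is not an independent result. The 10 chaperone and protease genes ranged from -1.20 to 0.96 beside this list, and no test between the lists was made. Whether these regulators responded to the mitochondrion or to another compartment was not tested.

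**Figure D4:**
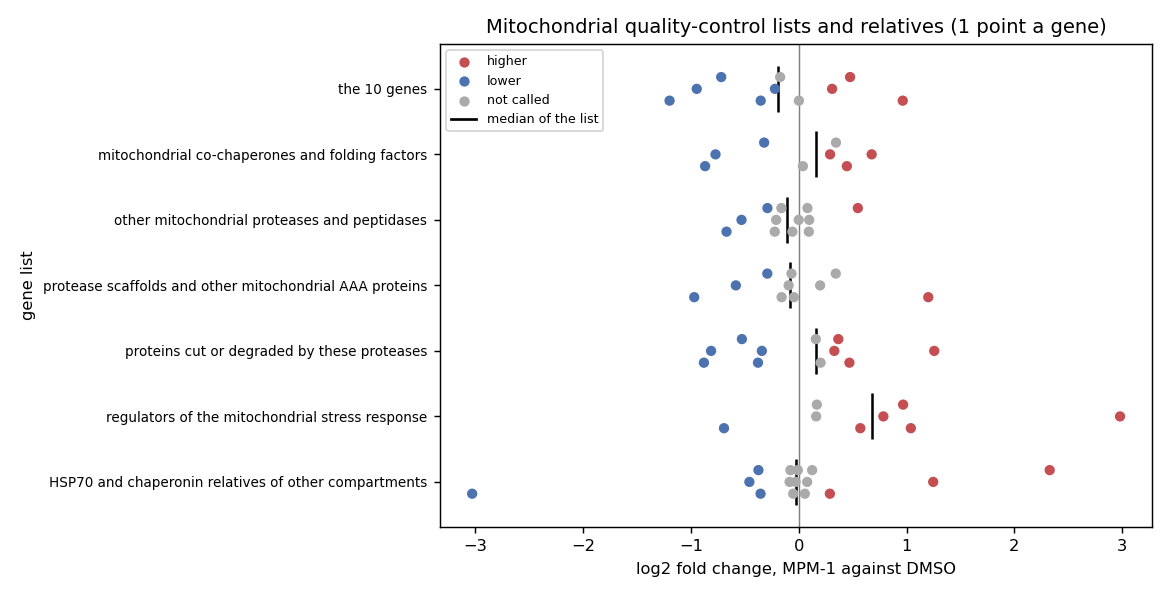
Log2 fold change, MPM-1 against DMSO, of each gene in the 10-gene group, in 5 further lists of mitochondrial quality control and in relatives from other compartments, colored by call, with a line at each median. Medians were -0.20 for the 10 genes and 0.68 for the stress regulators, where DDIT3 reached 2.98. The genes and lists were chosen with earlier results of these data known.

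Relatives of the chaperones outside the mitochondrion were set beside them. Of 15 such genes, 3 rose and 4 fell (median -0.031), near the 27.7% and 28.8% of all genes. HSPA5, the HSP70 of the endoplasmic reticulum, rose from 1618, 1179 and 1189 CPM to 8742, 4785 and 6477 CPM (log2 fold change 2.33), MPM-1 replicate 1 being the highest. HSPA2 had the largest fall (-3.03), at a level below 2 CPM in DMSO, and HSPA8, the constitutive cytosolic HSP70, also fell (-0.36). The stress-inducible HSPA1A had 77.7, 66.7 and 57.0 CPM in DMSO and 160, 15.7 and 33.4 CPM after MPM-1, and was not called. There MPM-1 replicate 1 was above all DMSO libraries and the other MPM-1 libraries below them, and HSPA1B showed the same order with 296, 41.9 and 64.99 CPM after MPM-1. Whether reads were shared between HSPA1A and HSPA1B was not tested, so HSPA1B is not taken as separate evidence of that order. Of the 8 subunits of the cytosolic chaperonin, CCT2 rose (0.29), CCT7 (-0.46) and CCT8 (-0.37) fell, and the other 5 lay between -0.078 and 0.077 without a call.

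Among the genes whose log2 CPM correlated most with HSPD1 over the 6 libraries were FKBP5 (Pearson's r = 0.999), CIAO2A (0.996), E2F2 (0.993) and AL136295.5 (0.991). They were picked as the highest over all other genes in the table, so a high r was fixed by the choice. The correlations are descriptions over 6 points that share treatment and library. The log2 fold changes of these genes ran from -1.69 for E2F2 to -0.22 for CIAO2A.

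Some counts are less certain because of shared sequence. GENCODE names 17 pseudogenes of HSPD1 and 26 of HSPE1, and 1 each of HSPA9, YME1L1 and AFG3L2, none of them among the genes in the table. On the same strand, HSPE1 shares exons with the read-through gene HSPE1-MOB4, OMA1 with DAB1 and HSPA9 with small nucleolar RNAs, and none of these is in the table either. On the opposite strand, 12.6% of the exonic bases of AFG3L2 overlap TUBB6 (log2 fold change -0.097), 6.04% of those of YME1L1 overlap MASTL (-0.84) and 14.2% of those of HSPE1 overlap HSPD1, and whether the counting used strand was not given in the sources used here.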

How the data were processed

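The mRNA of SW480 cells was sequenced in 3 libraries per treatment, grouped by their labels. The authors deposited 1 table with raw counts per gene and FPKM per gene. Per the labels, HISAT2 and DESeq2 were used and the build was mm10, a mouse build, although the identifiers are human. Counting and annotation are not given in the sources used here. Positions come from GENCODE 29 on GRCh38, promoter windows from RefSeq. Each gene had at least 115 counts in total, so genes with fewer were not analysed here. The authors' columns of log2 fold change and FDR were not used.

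Counts were tested with edgeR 4.0.16 (quasi-likelihood, TMM, filterByExpr, which removed no gene; common dispersion 0.0231) in R 4.3.3. Levels are CPM. Standard errors were derived from the F statistic. This edgeR fit was tested on simulated counts that shared the common dispersion, and the alternative fits were not. Alternatives used DESeq2 1.42.0, limma 3.58.1 on log2(FPKM + 1) and log2(FPKM + 0.1) for 11497 genes (mean FPKM 1 or higher) (the pseudocount of 1 understates changes of low genes), a mean of at least 50 counts, library size alone, the replicate number as a block and each library left out. Nothing states that libraries were separate cultures, so p-values cover only the spread between these libraries. No pair within a treatment was the same library (chi-square per gene 15.4 to 33.2).

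All 10 genes are named. In each further list, the called genes with the largest rise and fall are named, with further members, chosen after their values were seen, for context. Of the 5 genes most correlated with HSPD1, 4 are named and the other is not reported here. The genes and lists were chosen with earlier results of these data known.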

Additional observations from a re-analysis of the deposited data

How the results depend on the processing

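In each of the 14 alternative fits, HSPA9, YME1L1, HSPE1, CLPX, CLPP and OMA1 kept their direction and their call. The genes called higher numbered 2 or 3 and those called lower 4 to 6. HSPD1, not called at -0.17, was called at -0.18 with a mean of at least 50 counts, -0.34 with limma on log2(FPKM + 1) and -0.21 without DMSO replicate 1, beside the fits given above. The value of SPG7 turned negative with a mean of at least 50 counts (-0.0051), scaling by library size alone (-0.15), limma on log2(FPKM + 1) (-0.15) and on log2(FPKM + 0.1) (-0.16), and ranged from -0.024 to 0.040 with a library left out. None of these passed. The median of the 10 genes was -0.35 with library size alone, -0.35 with limma on log2(FPKM + 1) and -0.36 on log2(FPKM + 0.1), and ranged from -0.22 to -0.16 with a library left out. The median of all genes moved too, from -0.026 to -0.18, -0.13 and -0.15 with these 3 settings in the same order. Library size alone leaves out the TMM factors and is otherwise the same fit. The cause of the shifts with limma was not tested. Of all genes, 2358 and 2345 were called higher with limma on FPKM in place of 3596, among fewer genes tested. The replicate number as a block gave SPG7 -0.00060 and changed no call of the 10 genes. Same-numbered libraries deviated with correlations of 0.021, 0.11 and -0.074, so the numbers were not taken to pair the libraries. Reads of OMA1, at most 424 a library, limit its precision. The 4 ratios kept their direction in the 7 alternatives each.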
